A study of Mus musculus with 2 samples.

Results

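Interferon-stimulated genes were described in mouse B-ALL (B-cell acute lymphoblastic leukaemia) sorted from bone marrow by the signal of SoNar, an encoded fluorescent sensor that reports cytosolic NADH relative to NAD+. The genes are a list of 35 symbols of known interferon targets, and were found through the RefSeq accession of each array probe. Probes matched 33 of them, out of 20618 genes with a named probe. Mx1 and Mx2, antiviral GTPases that the RefSeq table lists as transcribed pseudogenes of the reference genome, had no probe matched through the table and were not analysed here.

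Each group was 1 sample of total RNA from mice of strain C57BL, 8 weeks old, hybridised to 1 Agilent 1-colour (Cy3) array. The SoNar-high and SoNar-low groups were the B-ALL cells on either side of a sort on the ratio of fluorescence at the sensor's excitation wavelengths. The sample titles read N-myc-high and N-myc-low, which the labels do not explain, and the labels used here do not say how the leukaemia was made or how many animals gave cells. The arrays were scanned on 2 different days, so scan session and group cannot be told apart. With 1 array per group no difference has a replicate check and no test was made. In such bulk samples a lower signal may mean fewer cells of a type or less RNA per cell, and these cannot be told apart. Of 43020 non-control spots the scanner software called 72.9% well above background for SoNar-high and 44.8% for SoNar-low. The lowest processed signal so called was 19.7 and 46.4, respectively.

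Interferons are secreted proteins that switch on antiviral genes in the cells they reach. Type I interferons act through a receptor coupled to the kinases JAK1 and TYK2, and assemble a complex holding STAT2 and IRF9 that binds the interferon-stimulated response element (ISRE). Interferon gamma acts mainly through the gamma-activated site (GAS) and induces IRF1 and large families of GTPases. The target sets overlap. In lymphoid cells many of these genes are also transcribed at a basal level without an infection. For the comparison the members were divided by textbook knowledge into 29 type I interferon targets and 6 interferon gamma targets, the latter being Irf1, Ifi47, Gbp2, Gbp3, Igtp and Irgm1.

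The promoter stretches below show matches to the elements through which both arms act. The division into type I and gamma targets used here was not made by these matches. They come from RefSeq windows of GRCm38.p6 that run from 250 bases before to 50 bases after a gene's start, and 28 members had at least 1 such window. The search used GAAANNGAAA and its reverse complement for the ISRE, and TTCNNNGAA, which is its own reverse complement, for the GAS. Capitals mark every base of a match, overlapping matches run together, and each stretch is written 5′ to 3′ on the strand of the gene with 12 bases on each side where the window allows. The first set holds type I targets.

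Isg15, chr4:156200863-156200908, minus strand: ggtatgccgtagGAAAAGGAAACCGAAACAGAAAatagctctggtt
Ifit1, chr19:34640773-34640825, plus strand: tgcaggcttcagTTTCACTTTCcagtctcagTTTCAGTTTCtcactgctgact
Ifit3, chr19:34583361-34583394, plus strand: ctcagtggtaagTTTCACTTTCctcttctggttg
Ifit3, chr19:34583395-34583428, plus strand: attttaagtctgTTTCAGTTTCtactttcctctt
Bst2, chr8:71537575-71537620, minus strand: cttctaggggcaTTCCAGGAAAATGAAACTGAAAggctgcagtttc
Stat2, chr10:128270264-128270297, plus strand: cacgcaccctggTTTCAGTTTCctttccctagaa
Samhd1, chr2:157135311-157135343, minus strand: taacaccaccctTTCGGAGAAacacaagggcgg

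The second set holds gamma targets.

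Gbp2, chr3:142620592-142620625, plus strand: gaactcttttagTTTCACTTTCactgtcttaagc
Gbp3, chr3:142559987-142560026, plus strand: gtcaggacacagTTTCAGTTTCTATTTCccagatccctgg
Irgm1, chr11:48871423-48871462, minus strand: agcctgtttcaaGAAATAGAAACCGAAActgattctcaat
Igtp, chr11:58199499-58199543, plus strand: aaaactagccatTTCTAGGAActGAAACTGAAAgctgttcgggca
Irf1, chr11:53769912-53769944, plus strand: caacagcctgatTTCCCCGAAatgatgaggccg

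An ISRE match was found for 14 of 28 members (50%) against 3.99% of all 27025 genes in the table, and a GAS match for 9 (32.1%) against 9.55%. Counted over all 32851 windows of the same length, 3.44% held the first and 8.30% the second. Isg15 carried 3 overlapping ISRE matches before its start, and Ifit1 and Ifit3 carried 2 separate ones each. The elements did not divide the classes. An ISRE match was present in 10 of 22 type I targets and in 4 of 6 gamma targets, and a GAS match in 7 of 22 and 2 of 6. Igtp, Bst2 and Oas1a held both kinds, side by side in Igtp, overlapping in Bst2 and further apart in Oas1a. A match is a description of the letters and says nothing of binding. Of the 14 members with an ISRE match, 10 were measured on both arrays, with a median log2 difference of -0.24, beside -0.48 for the 9 measured members without one. For the GAS the order was the other way, with -0.48 for 7 measured members with a match and -0.19 for 12 without.

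With the arrays scaled to their 75th percentile, every member that could be measured on both arrays differed by less than 2-fold between SoNar-high and SoNar-low cells. A probe whose spots were mostly well above background is called detected, and a gene with at least 1 probe detected on both arrays is called measured. Against 51.0% of all genes with a named probe, this held for 21 of the 33 members (63.6%). Their differences are given as log2 of the processed signal minus the 75th percentile of the array, SoNar-high minus SoNar-low, so a value of 1 is a 2-fold higher level on the SoNar-high array. None of the 21 reached a 2-fold difference, with 0 higher and 0 lower, where 6.55% of all 10517 measured genes did, 4.87% higher and 1.68% lower. At that share about 1 gene in 21 would have done so. With median scaling, which lowers every difference by the same amount and shifts the median of all genes by -0.61, 0 members were higher and 9 were at least 2-fold lower, against 1.32% and 31.4% of all genes. The median difference of the members was -0.27, with a range from -0.79 to 0.28, and that of all measured genes was -0.17. Below 0 were 17 of 21 members, against 63.2% of all genes, and 13 of 21 lay below the median of all genes, where 50% of genes lie. Both shares are somewhat above the background, with no test of the excess.

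**Figure D1:**
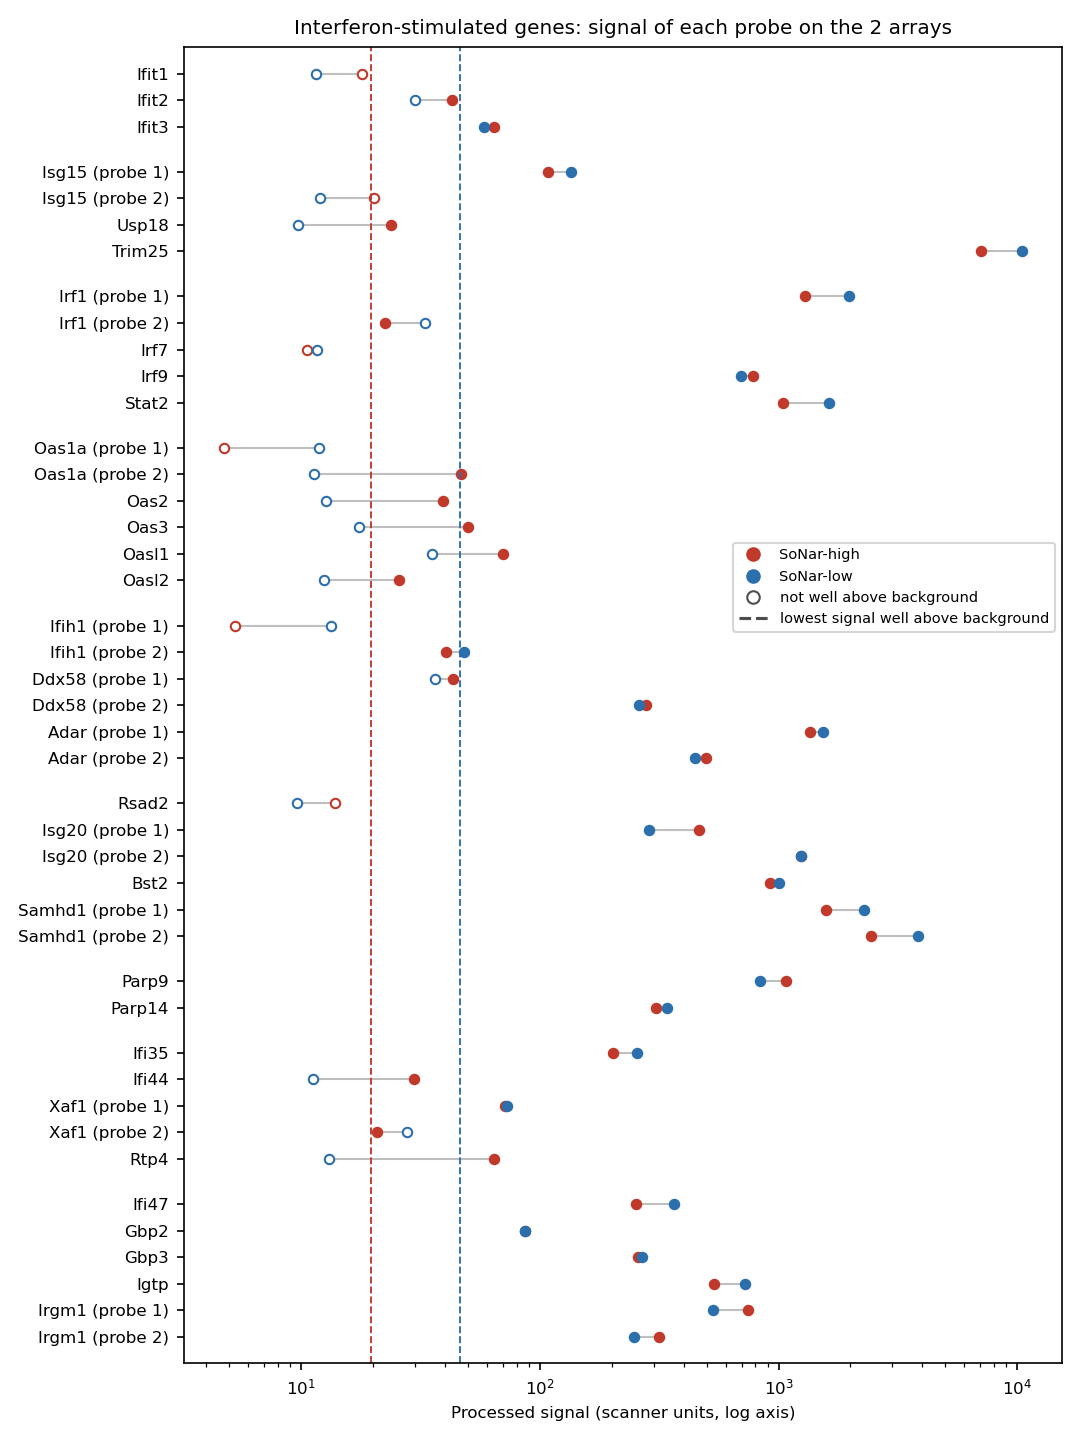
Processed signal (scanner units, log axis) of each probe of the 33 members on the SoNar-high array (red) and the SoNar-low array (blue), grouped by role. Open circles are signals not well above background and dashed lines mark the lowest detected signal of each array, 19.7 and 46.4. Oas2, Oas3, Oasl1, Oasl2, Ifit2, Usp18, Ifi44 and Rtp4 are open for SoNar-low alone. So is 1 of the 2 probes each of Oas1a, Irf1, Ddx58 and Xaf1. Trim25, Samhd1, Stat2 and the other Irf1 probe are bright on both.

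The error of a difference has 3 measured sources here, and none of them covers biological spread. The scanner software gives an error for each spot, which amounts to about 0.20 (1 SD) for the log2 difference of a bright probe. Repeat spots of a probe detected on both arrays had a median SD of 0.15 over 193 probes. Different probes of a gene disagreed more. Over the 2021 genes with exactly 2 measured probes the gap between their differences had a median of 0.43 and a 90th percentile of 1.15. The 4 members with 2 measured probes had gaps from 0.13 to 0.70. By the software's error alone, 8 of 21 members lay below the median of all genes by more than 1 SD and 3 lay above it, against 33.3% and 34.2% of all genes.

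Among the transcription factors, 2 of the 3 measured were lower on the SoNar-high array. Stat2, a subunit of the complex that type I receptors assemble, had a processed signal of 1039.5 for SoNar-high and 1620.3 for SoNar-low, the order kept for each pair of signals, and a log2 difference of -0.79 with a software error of 0.20 (1 SD, given in parentheses from here on). This was the lowest value of any member. Irf9, the DNA-binding partner of STAT2 in the same complex, had signals of 783 and 694 and a difference of 0.030 (0.21). These subunits of 1 complex thus had unlike values. Irf1, a factor that interferon gamma induces, had signals of 1285 and 1965 on its bright probe and a difference of -0.76 (0.20). The other Irf1 probe had 22.5 and 32.9, was not well above background on the SoNar-low array, and had the same sign. Irf7, the factor that amplifies type I interferon production, had signals of 10.6 and 11.6 and was detected on neither array.

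In the ISG15 system, Trim25 had a difference of -0.72 (0.20), with signals of 7030 and 10485. TRIM25 is a ubiquitin ligase that activates the RNA sensor RIG-I and also attaches ISG15. Isg15, the ubiquitin-like modifier itself, had signals of 108 and 135 on its detected probe and a difference of -0.46 (0.24), while its other probe, at 20.2 and 12.02, was detected on neither array. Usp18, the protease that removes ISG15 and restrains the type I receptor, had signals of 23.9 and 9.74. Both lie near background, and only the first was well above it.

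The IFIT proteins bind viral RNA and block its translation. Ifit3 had nearly equal signals of 64.4 and 58.4 and a log2 difference of -0.0047 (0.33). Ifit2 had 43.0 and 30.1, the second not well above background, and Ifit1 had 17.9 and 11.5, detected on neither array although its promoter stretch shown above carries 2 ISRE matches. These are dim signals throughout.

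All 5 listed members of the OAS family, which are enzymes that answer double-stranded RNA by making the activator of RNase L and their OAS-like relatives, were detected on the SoNar-high array and none on the SoNar-low array. The signals were 46.5 and 11.3 for the brighter Oas1a probe, 39.3 and 12.7 for Oas2, and 50.2 and 17.5 for Oas3. Oasl1, which is OAS-like, had 70.4 and 35.4, and Oasl2 had 25.8 and 12.5. The other Oas1a probe had 4.73 and 11.8 and was detected on neither array. On the SoNar-low array all of these signals lie under that array's lowest detected signal of 46.4, so the difference has only a bound. Set against the lowest level detected for SoNar-low, only Oasl1 was higher on the SoNar-high array, at least 1.37-fold. For the other four the scaled SoNar-high level itself lay under that limit and no fold can be given. Oas1c, an OAS gene outside the list, was bright enough to be measured, with signals of 506 and 734 and a difference of -0.68 (0.21).

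The same held for other dim members. In all, 9 of 33 members were detected in SoNar-high alone and 0 in SoNar-low alone, against 26.5% of all 20618 genes on the SoNar-high side. Besides the OAS genes these were Ifit2, Usp18, Ifi44 and Rtp4. Rtp4, a receptor transporter protein induced by interferon, had signals of 64.2 and 13.1 and was at least 1.25-fold higher on the SoNar-high array. Ifi44 had 29.6 and 11.2. Of the 9 members, 2 had a bound above 1-fold, against 32.4% of the 5454 genes detected so, and 0 a bound of at least 2-fold, against 6.71%. With median scaling none of the 9 had a bound above 1-fold. Detected on neither array were 3 members (9.09%), Ifit1, Irf7 and Rsad2, against 22.5% of all genes. Rsad2, which encodes the antiviral enzyme viperin, had signals of 13.8 and 9.62.

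Among the RNA sensors and the RNA editing enzyme all 3 values were below 0, as were 63.2% of all genes. Only 1 of the 3 lay below the median of all genes, and 0 by more than the software error. The value of Ifih1 moved most with the processing. Ddx58, which encodes RIG-I, had signals of 277 and 259.9 (difference -0.050, error 0.21) on its bright probe and 43.1 and 36.3 on the other, which was not well above background on the SoNar-low array. Ifih1, a second sensor of double-stranded RNA, had 40.4 and 48.1 (-0.40, 0.38), just above the lowest detected signal of the SoNar-low array, and its other probe was detected on neither array. Its difference reached -1.01 under median scaling, -1.04 under quantile normalization, -1.19 under cyclic loess and -1.25 in the authors' value table. The 2 probes of Adar, the enzyme that edits adenosine to inosine, had differences of -0.32 and -0.0028, with signals of 1352 and 1532 on the brighter, and a mean of -0.16 (0.15).

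Antiviral effectors split in sign. Samhd1, which depletes the deoxynucleotide pool, had signals of 1576 and 2272 on one probe and 2431 and 3830.1 on the other. Both probes gave lower levels on the SoNar-high array, with differences of -0.67 and -0.80 and a mean of -0.74 (0.14). Bst2, which tethers virus particles to the cell surface, had 918 and 1002 and a difference of -0.27 (0.20). Isg20, an RNA exonuclease, had signals of 464 and 288 on one probe (difference 0.55) and 1243 and 1248 on the other (-0.15), so its mean of 0.20 (0.15) rests on probes of opposite sign.

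The PARP proteins attach ADP-ribose, and PARP9 and PARP14 are partners in interferon signalling. Parp9 had signals of 1072 and 838 and a difference of 0.21 (0.21), and Parp14 had 305 and 342 and a difference of -0.31 (0.21). Parp9 lay above the median of all genes by more than its error and Parp14 did not differ from it by more than its error. Ifi35, which binds the factor NMI, had 203 and 256 and a difference of -0.48 (0.22). Xaf1, a pro-apoptotic protein, had 71.6 and 73.0 and a difference of -0.17 (0.33) on the probe detected on both arrays, and 20.8 and 27.7 on the other, which was not well above background for SoNar-low.

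Interferon gamma targets spanned nearly the whole range of the members. The immunity-related GTPases act on the membranes around intracellular pathogens, with IRGM1 as a regulatory member, and the guanylate-binding proteins act beside them. Igtp, measured by 10 spots of 1 probe, had mean signals of 535 and 720.4 and a difference of -0.57 with an SD between spots of 0.13. Ifi47 had 253 and 365 and a difference of -0.67 (0.21). Irgm1 was the highest of all members, with signals of 745 and 529.9 on one probe and 316 and 248 on the other, differences of 0.35 and 0.20 and a mean of 0.28 (0.15). The guanylate-binding proteins among the members lay near the median of all genes under this scaling. Outside the list, Gbp4 (-0.71) and Gbp9 (-0.26) lay below that median and Gbp6 (0.48) and Gbp10 (0.49) above it. Gbp2 had signals of 86.7 and 86.9 (difference -0.15, error 0.27) and Gbp3 258 and 269 (-0.21, 0.21).

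**Figure D2:**
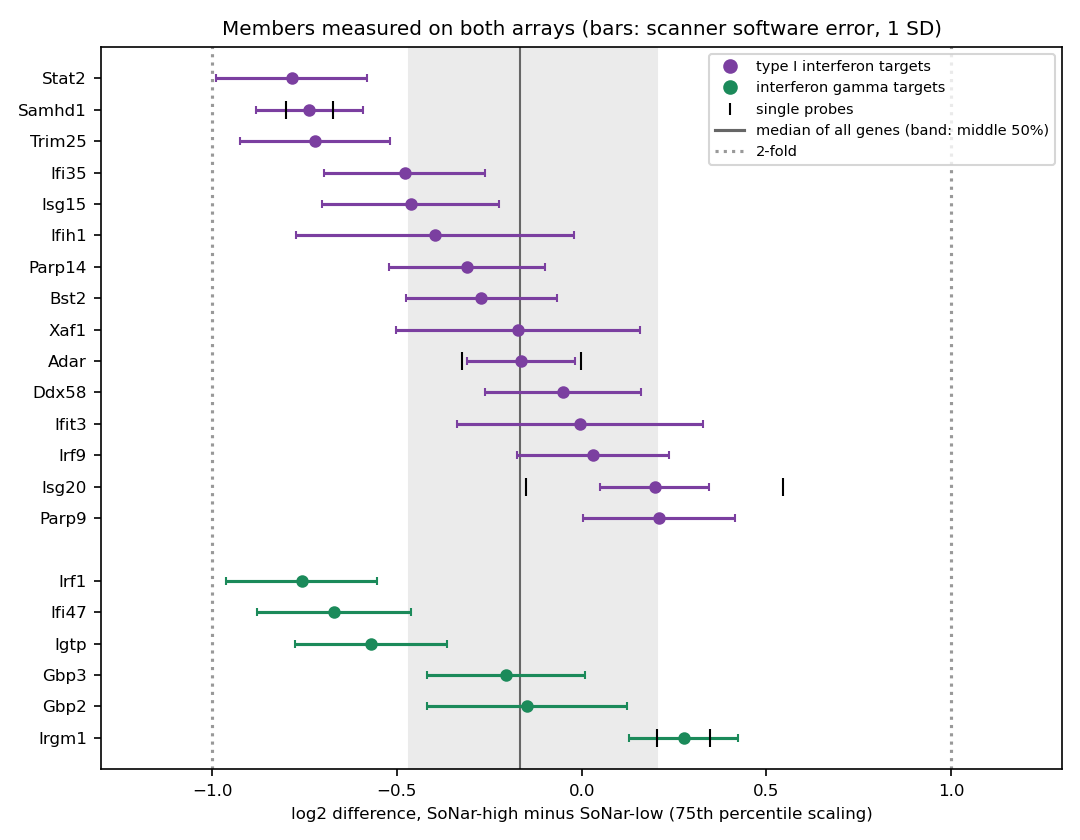
Difference on the log2 scale (75th percentile scaling, above 0 where SoNar-high is higher) for the 21 members measured on both arrays, with the scanner software's error as bars of 1 SD and single probes as black ticks where 2 were used. All points lie inside the dotted 2-fold lines; Stat2 is lowest at -0.79 and Irgm1 highest at 0.28, and the grey band holds the middle 50% of all genes around their median of -0.17.

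Type I and gamma targets were compared by their medians. The 15 measured type I targets had a median log2 difference of -0.27, with a range from -0.79 to 0.21, and the 6 gamma targets one of -0.39, with a range from -0.76 to 0.28. The ranges overlap almost wholly. The gap between the medians was 0.12, and 6 of the 15 type I values lay below the gamma median. Detection was uneven between the classes. All 6 gamma targets were measured on both arrays, and 15 of the 27 type I targets with a probe. Of all genes 51.0% were so measured. The gap widened to 0.46 when no filter on dim probes was used, since this brings in the dim type I targets, and shrank to 0.00075 with cyclic loess. The gamma median lay below the median of all genes under each of the 14 settings tried, and the type I median under each but the one without a filter. The 2 alternative scalings shift all genes alike, so they could not change either position.

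**Figure D3:**
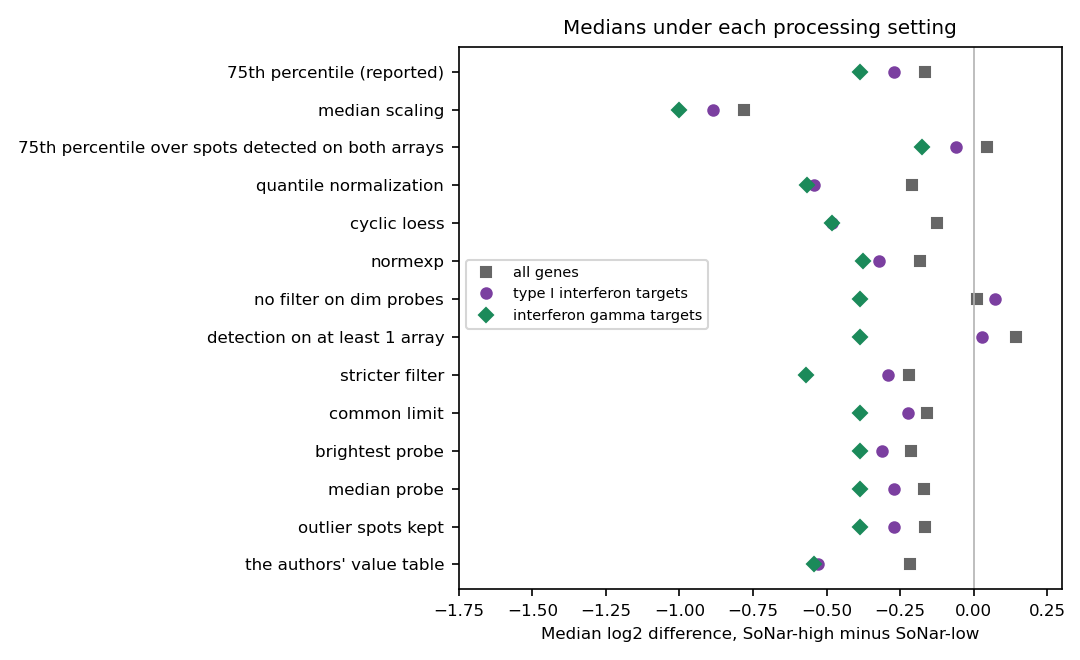
Median difference on the log2 scale, above 0 where SoNar-high is higher, for the type I targets (circles), the gamma targets (diamonds) and all measured genes (squares) under the reported setting and 13 alternatives. Scaling moves all 3 together, from -0.78 for all genes with median scaling to 0.046 with the percentile taken over spots detected on both; the authors' value table, quantile normalization and cyclic loess put the type I median furthest below all genes.

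Differences on these arrays varied with signal level, and members should be read against genes of like brightness. In the dimmest quartile of measured genes the median difference of all genes was 0.089, and it was -0.083, -0.26 and -0.34 in the next 3. The members in these quartiles numbered 5, 7, 7 and 2, with medians of -0.17, -0.31, -0.16 and -0.73. They lay below the other genes in all quartiles but the third. The 2 in the brightest quartile were Samhd1 and Trim25.

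**Figure D4:**
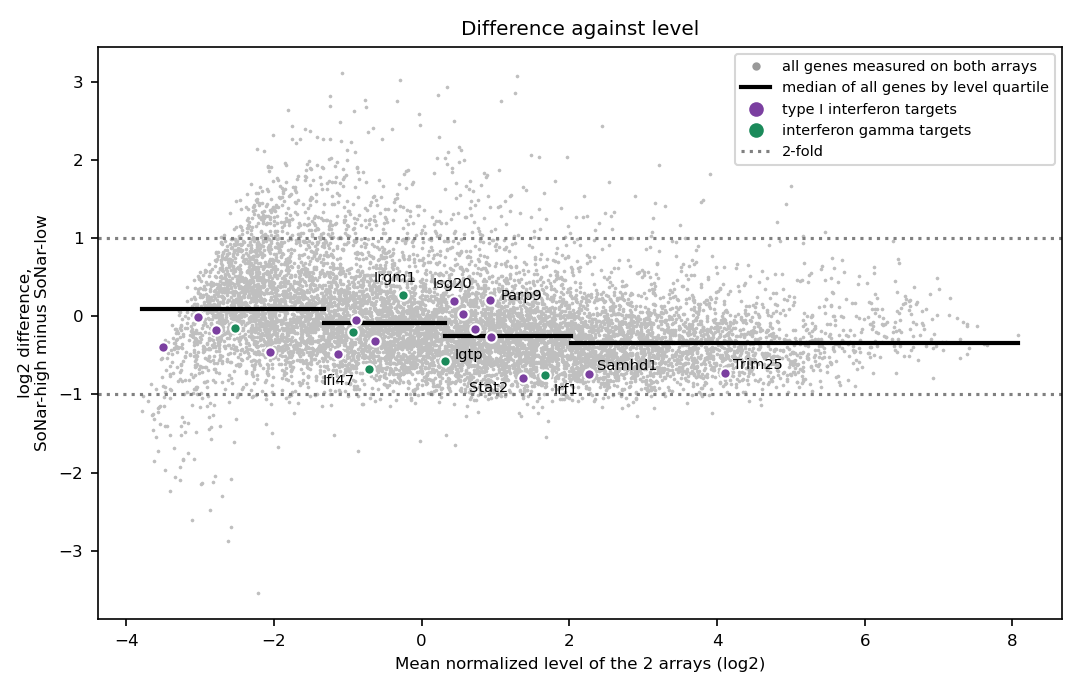
Difference on the log2 scale (above 0 where SoNar-high is higher) against the mean normalized level of both arrays for the 10517 measured genes (grey), with the 21 members in colour. Black bars are the medians of all genes in the 4 level quartiles, from 0.089 in the dimmest to -0.34 in the brightest; Stat2, Irf1, Samhd1, Trim25, Ifi47 and Igtp lie below these bars and Irgm1, Isg20 and Parp9 above.

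The position of single members relative to the median of all genes was stable for 12 of the 21. Trim25, Irf1, Stat2, Ifih1, Samhd1, Parp14, Ifi35, Ifi47 and Igtp lay below that median under every one of the 14 settings that gave them a value, and Isg20, Parp9 and Irgm1 above it. The other 9 lay on either side. Relative to that median, Stat2 ranged from -0.93 to -0.40 and Irgm1 from 0.13 to 0.56. The 2 alternative scalings shift all genes alike, so they could not change a position relative to that median. The 2 probe rules leave the difference of a member with 1 measured probe as it was. Agreement between settings was thus partly fixed in advance.

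The pathway upstream was measured at near-equal levels. Of 12 listed interferon receptors and JAK-STAT genes 10 were measured, and the median was -0.15. Of these 10, 0 passed 2-fold in either direction, against 6.55% of all measured genes. Jak1, the kinase shared by type I and gamma receptors, was the lowest at -0.70 and Jak2, the kinase of the gamma receptor, the highest at 0.52. Ifngr1, the ligand-binding gamma receptor chain, had -0.47 and Socs3, a feedback inhibitor, 0.22. Among 12 genes of nucleic acid sensing 9 were measured, with a median of -0.14. The highest were Tlr9, an endosomal receptor for DNA, with signals of 1309.5 and 307 and a difference of 1.95, and Tlr7, its counterpart for RNA, at 0.59. Tlr9 was the 1 gene of that list past 2-fold and none was 2-fold lower, against 4.87% higher and 1.68% lower of all measured genes. The lowest were Sting1 at -0.41 and Myd88 at -0.34.

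Interferon transcripts themselves were mostly dim. Of 10 listed interferon genes 1 was measured on both arrays, Ifnl3, with a difference of 1.58 on 1 of its 2 probes. A further 5 of the 9 with a probe were detected in SoNar-high alone, which were Ifna1, Ifna2, Ifna5, Ifne and Ifng. Of all 20618 genes, 26.5% were so detected. Ifna1 had signals of 95.6 and 24.0 and was at least 1.86-fold higher for SoNar-high, or 1.22-fold with median scaling. Ifna5 had 79.5 and 51.1 and was at least 1.41-fold higher, with no bound above 1-fold under median scaling. Ifng had 24.2 and 14.6 and Ifne 24.8 and 15.1, both with no bound above 1-fold. Ifnb1 had 4.37 and 9.58 and was detected on neither array.

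Targets outside the list had medians near that of all genes. Of 26 other type I targets 14 were measured, 1 of them more than 2-fold higher and 0 more than 2-fold lower, with a median of -0.22. Ifitm3, which blocks virus entry, was the highest at 1.29 (signals 241 and 89.2), followed by Lgals3bp at 0.51, and Oas1c (-0.68) and Ifi27l2a (-0.49) were the lowest. Of 27 other gamma targets 18 were measured, again 1 past 2-fold higher and 0 past 2-fold lower, with a median of -0.21. Tap2, the peptide transporter subunit (-0.84), and the immunoproteasome subunit gene Psmb10 (-0.76) were lowest. Iigp1, an immunity-related GTPase, was highest at 1.36 with signals of 859 and 303 on the 1 detected of its 2 probes, followed by Tapbp at 0.72.

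Within the immunity-related GTPases the values therefore spread widely. Irgm2, with -0.57, lay beside Igtp and Ifi47. Tgtp1 and Tgtp2, near-identical genes whose probes may not tell them apart, had signals of 150 and 12.7 and of 157 and 11.9 and were detected in SoNar-high alone, higher by at least 2.93-fold for Tgtp1 and at least 3.05-fold for Tgtp2, bounds that fall to 1.92-fold and 1.996-fold with median scaling. A further Tgtp2 probe had 4.15 and 9.38 and was detected on neither array. These GTPases were singled out after their values were seen.

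Cell type markers spread more widely than the members, B-lineage ones included. B-lineage markers were present, with Cd79b at 14377 and 12625. Of the 14 B-lineage markers 10 were measured, with a median of -0.31 and a range from -0.92 to 1.16, while Igll1, Rag1 and Rag2 were detected on neither array. The medians of the 5 other marker lists lay above that of all genes. Of 13 neutrophil markers 12 were measured with a median of 0.59, and the summed signal of the list was 66712 for SoNar-high and 46407 for SoNar-low. For plasmacytoid dendritic cells, a source of type I interferon, 6 of 9 were measured with a median of 0.35 and a summed signal of 31682 against 19377, most of it from Siglech at 21221 and 9877. The differences in that list ran from -0.89 to 1.41, with 2 of 6 below 0, and Tcf4 had -0.49. Tcf4 and Spib in that list are also transcribed in B cells. Natural killer and T cell markers (5 of 12 measured, median 1.22) summed to 2836 and 1165, erythroid ones (4 of 10, 1.07) to 2907 and 1405, and monocyte and macrophage ones (2 of 9, 0.81) to 906 and 410.4. Among the markers not well above background on either array were Klrb1c, Gzmb, Cd3d, Cd8b1 and Ccr2. The summed signal of the members themselves was 23505 and 29934, and that of the B-lineage markers 38806 and 41756. All of these sums are of unscaled signals and include probes not detected. Over all genes the ratio of summed signals, SoNar-high over SoNar-low, was 0.95. Csf3r alone gave 39790 and 26891 of the neutrophil sums, so the sums do not measure amounts of a cell type. The part of these markers in the members' values was not tested.

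**Figure D5:**
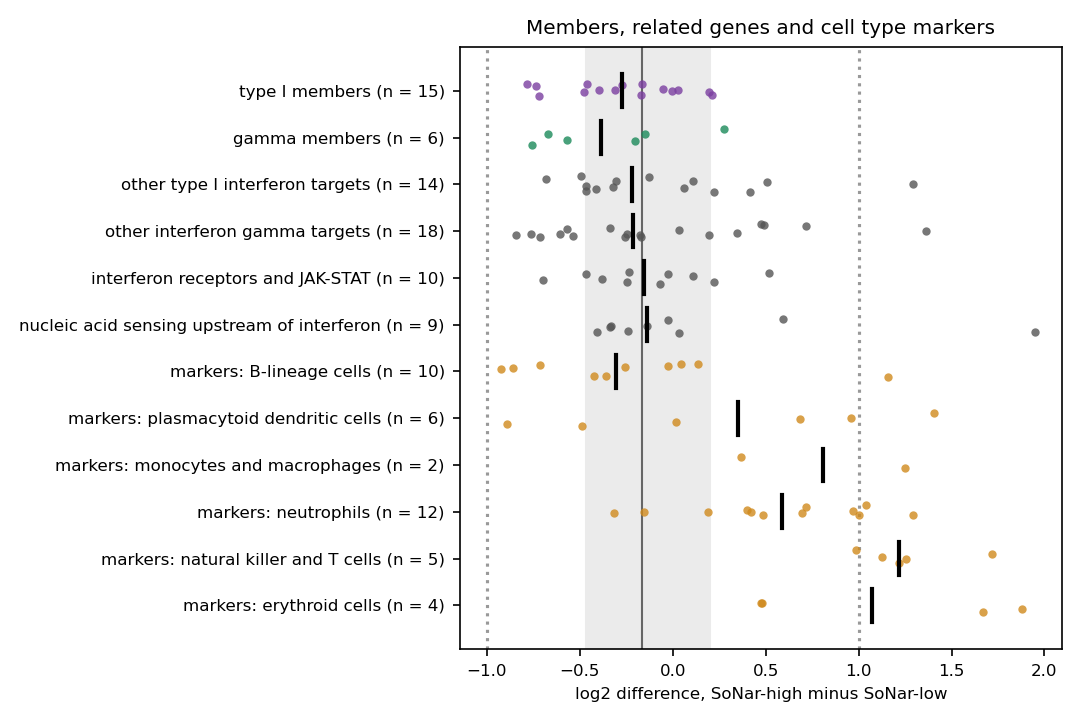
Differences on the log2 scale (above 0 where SoNar-high is higher) for the members by class, of 4 related gene lists and of 6 lists of cell type markers, each point a gene measured on both arrays and each black bar a median. The grey line and band are the median and middle 50% of all genes. The members' medians of -0.27 and -0.39 lie on the lower side of the line. The medians of the marker lists other than the B-lineage one lie above the line, with single neutrophil and plasmacytoid dendritic cell markers below it.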

How the data were processed

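Total RNA of 1 SoNar-high and 1 SoNar-low sample was hybridised to 1 Cy3 array each, and groups were taken from the source names. As deposited, each scanner file gives the intensity of every spot, background-subtracted and detrended within each array by Agilent Feature Extraction 11.0.1.1, per the file headers; version 9.1 stands in the submitters' processing notes. The authors' value table is on a log2 scale, with a median of 5.90 in both columns. How it was scaled is not given in the sources used, and it served as an alternative only.

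Of 43020 non-control spots, 685 marked as non-uniform or population outliers were left out, and no spot was saturated. Levels were log2 of the processed signal minus the 75th percentile of the array. Spots of a probe were averaged. Probes were named through unversioned RefSeq accessions in a table of GRCm38.p6 (27115 of 39085 named); the array design is annotated on mm9, so array positions are not used. Probes of a gene that were detected on both arrays were averaged. A member detected on 1 array has a bound: its level there minus the other array's lowest detected level, or minus the probe's own level on that array where this is higher. The number of arrays limits the precision. Every member is reported. Of each related list up to 2 highest and 2 lowest genes are given, beside some relatives of the member GTPases. The members, classes and lists were chosen with earlier results of these data known. The steps were tested on simulated data with known differences above 2-fold or none. The simulated spread was smaller than that between repeat spots, so the test does not bear on differences as small as the members'. The 13 alternatives changed the scaling (2), the normalization (quantile, cyclic loess), the background correction (normexp, offset 50, on median spot signals), the filter on dim probes (4), the probe rule (2), the outlier spots and the source table. Python 3.11.15, pandas 2.3.3, R 4.3.3 and limma 3.58.1 were used. Some genes of the related and marker lists are not reported here by name.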

Additional observations from a re-analysis of the deposited data

How the results depend on the processing

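No paired analysis was possible because the design holds a single array per group, and no array could be left out. A median counted as moved past the repeat-spot SD of 0.15. Against 0 members at least 2-fold lower, 9 were so with median scaling (Ifi35, Ifi47, Ifih1, Igtp, Irf1, Isg15, Samhd1, Stat2 and Trim25) and 1 (Ifih1) with quantile normalization, with cyclic loess and in the authors' value table. Of all genes 31.4%, 3.33%, 2.85% and 4.09% were so lower, in that order of settings. Against 0 higher, 5 of 33 (Ifi44, Oas2, Oas3, Rtp4 and Usp18) were so unfiltered. With detection needed on either array 6 of 30 were (Oas1a too). Both arise by construction, since dim probes enter. Of all genes 13.5% were so higher unfiltered and 20.0% with detection on either array. The median of members (-0.27) was -0.89 with median scaling, -0.059 when the 75th percentile used spots detected on both arrays, -0.54 with quantile normalization, -0.48 with cyclic loess, -0.53 in the authors' table, 0.026 unfiltered and -0.077 with detection on either array. In the same order the type I median (-0.27) was -0.89, -0.059, -0.54, -0.48, -0.53, 0.072 and 0.028. The gamma median (-0.39) was -1.001 with median scaling, -0.17 with the 75th percentile so taken, -0.57 with quantile normalization, -0.54 in the authors' table and -0.57 with the stricter filter. The members' margin to all genes (-0.10) was -0.33 with quantile normalization, -0.36 with cyclic loess and -0.31 in the authors' table. The gap between classes (0.12) was 0.46 unfiltered, 0.42 with detection on either array and 0.28 with the stricter filter. Members detected on the SoNar-high array alone went from 9 to 2 with 1 common limit for both arrays, which leaves out signals dimmer than the SoNar-low limit by construction. The cause was not tested for the normalizations or the authors' table. Scaling shifts all genes alike by construction. Of 268 values of single members under the alternatives, 181 moved by less than 0.15. The probe rules, the outlier spots and the filters left the measured probes of most members unchanged. Many of these values therefore could not move, and the count does not measure robustness. Detection on the SoNar-low array limits what can be said of the dim type I targets.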
